A study of Mus musculus with 16 samples.

Results

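The mature mouse oocyte genome held broad stretches with almost no CpG methylation, and this account describes those stretches in metaphase II (MII) oocytes of 16 libraries. They were chosen from the methylation calls themselves. The autosomes were divided into 10-kb bins starting at multiples of 10000 bp on GRCm38, a bin was measured where each of the 16 libraries had at least 20 calls in it, and a measured bin was a member where the pooled share of methylated calls was below 10%. Of 239597 autosomal bins with sequence, 57035 (23.8%) were measured, and 19797 of these (34.7%) were members, 197.97 Mb in all. Adjacent members were merged into 10665 unmethylated domains.

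The libraries came from pools of oocytes of C57BL/6J X CBA/Ca F1 females in 4 groups. IFC (n = 4, labelled 23 days old) was in vitro follicle culture, in which preantral follicles of younger females were grown in culture up to ovulatory stimulation. SO (n = 5) came from prepubertal 23-day-old females after superovulation with eCG and hCG, SOA (n = 4) from superovulated 10-week-old adults given a larger dose of each hormone, and IV (n = 3) from 10-week-old adults that ovulated naturally. Age and hormone dose therefore cannot be told apart between SO and SOA. Each library was made by post-bisulphite adapter tagging (PBAT), a method for small amounts of DNA in which adapters are added after bisulphite treatment, and a cytosine still read as C is called methylated.

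In the mouse germ line, DNA methylation is erased before birth and laid down again in each follicle as the oocyte enlarges. The enzyme DNMT3A, helped by the inactive partner DNMT3L, places it chiefly where transcription has passed. The result is a genome of alternating hypermethylated and hypomethylated domains, unlike that of most somatic cells, in which methylation covers nearly all of the genome outside CpG islands. Promoters with many CpGs are usually unmethylated in both settings, so what sets the oocyte apart is that whole gene bodies and intergenic stretches can lack methylation.

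The libraries held 5218053 to 23065411 CpG calls, and a member bin had a median of 37 to 168 calls per library. Library IV1 stood apart. It had the highest level in 9582 of the 19797 member bins (48.4%), and in bins above 90% in the other 15 libraries it was the lowest, at 91.3% against 93.0% to 95.4%. Library SO4 was the second highest in the domains. The values of these libraries, or the results without them, are given beside the results that they moved most. The pools are separate samples by their labels. The exact permutation tests, the quasi-binomial F test and limma used here set a difference against the spread between pools, while the likelihood-ratio test sets it against counting error only.

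The kinds of sequence concerned are shown by 6 stretches on GRCm38.p6, read 5′ to 3′, with each CpG in capitals. The first 3 lie in members: the 250 bases upstream of the RefSeq start of Hoxa5, a homeobox gene of anterior-posterior patterning (chr6:52204588-52204837, minus strand), the 250 bases upstream of Meioc, a regulator of meiotic prophase (chr11:102665335-102665584), and 300 bases of the longest domain, which holds no protein-coding gene (chr17:47168500-47168799). The fourth is the 250 bases upstream of Rpl35a, a ribosomal protein gene whose measured bins were not members (chr16:33056203-33056452), and shows that an unmethylated promoter alone did not make a bin a member. The fifth and sixth lie in the same member bin in an intron of Foxo3, a transcription factor that restrains the activation of primordial follicles. One belongs to a methylated patch (chr10:42270677-42270976) and the other is the stretch of that bin closest to it in CpG number (chr10:42272300-42272599).
Hoxa5 upstream: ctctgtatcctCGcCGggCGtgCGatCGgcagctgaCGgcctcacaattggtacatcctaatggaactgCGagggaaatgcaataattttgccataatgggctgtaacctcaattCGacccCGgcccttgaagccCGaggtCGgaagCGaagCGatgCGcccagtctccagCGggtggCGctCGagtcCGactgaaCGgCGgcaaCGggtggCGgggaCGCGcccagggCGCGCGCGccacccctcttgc
Meioc upstream: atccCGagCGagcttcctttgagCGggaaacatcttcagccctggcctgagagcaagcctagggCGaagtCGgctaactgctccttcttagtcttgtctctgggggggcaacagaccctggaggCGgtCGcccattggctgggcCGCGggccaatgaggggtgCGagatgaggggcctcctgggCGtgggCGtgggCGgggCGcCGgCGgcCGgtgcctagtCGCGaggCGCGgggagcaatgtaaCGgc
Longest domain: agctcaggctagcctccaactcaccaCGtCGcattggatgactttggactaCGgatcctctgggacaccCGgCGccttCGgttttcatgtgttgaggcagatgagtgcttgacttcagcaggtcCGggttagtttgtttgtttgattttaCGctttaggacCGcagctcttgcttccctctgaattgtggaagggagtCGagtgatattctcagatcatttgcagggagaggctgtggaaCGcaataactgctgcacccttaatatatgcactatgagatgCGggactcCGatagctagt
Rpl35a upstream: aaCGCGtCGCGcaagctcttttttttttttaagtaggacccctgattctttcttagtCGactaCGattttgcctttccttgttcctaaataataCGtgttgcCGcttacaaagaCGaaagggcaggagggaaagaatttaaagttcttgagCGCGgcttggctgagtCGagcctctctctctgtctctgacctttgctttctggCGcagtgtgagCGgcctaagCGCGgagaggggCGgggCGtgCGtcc
Foxo3 patch: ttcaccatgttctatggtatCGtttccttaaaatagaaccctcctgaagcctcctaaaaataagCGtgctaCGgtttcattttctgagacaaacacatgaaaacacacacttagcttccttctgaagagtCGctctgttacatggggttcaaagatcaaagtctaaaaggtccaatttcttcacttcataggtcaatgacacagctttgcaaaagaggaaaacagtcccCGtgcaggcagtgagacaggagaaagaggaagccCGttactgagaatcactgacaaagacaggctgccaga
Foxo3 comparison: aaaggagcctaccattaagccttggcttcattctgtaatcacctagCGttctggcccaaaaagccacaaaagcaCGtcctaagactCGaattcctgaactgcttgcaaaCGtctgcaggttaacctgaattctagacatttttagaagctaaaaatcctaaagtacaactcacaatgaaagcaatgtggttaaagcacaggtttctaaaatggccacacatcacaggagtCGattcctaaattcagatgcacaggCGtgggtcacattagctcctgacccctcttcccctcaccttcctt

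Over all 16 libraries, 2 of 232 calls in the Hoxa5 stretch were methylated (0.862%, 95% Wilson interval 0.237 to 3.09%, counting error only). In the Meioc stretch 5 of 173 calls were methylated (2.89%), in the stretch of the longest domain 9 of 268 (3.36%), and in the Rpl35a stretch 4 of 230 (1.74%). These 4 stretches held 28, 22, 13 and 19 CpGs. They range from dense to moderate CpG content, but all except the Rpl35a stretch lie in bins chosen as low. The 2 Foxo3 stretches each held 6 CpGs. All 64 calls of the patch were methylated and none of 81 calls in its neighbour was, which allows a share of up to 3.70%. The patch was chosen for methylated CpGs and the bin for a low level, so that this contrast was set by the choice.

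Most domains were short on this grid. Of the 10665 domains, 6567 (61.6%) were a lone bin, 2056 had 2 bins and 1395 had 3 to 4 bins, while 647 reached 50 kb or more and 86 reached 100 kb or more. The median length was 10 kb, the mean 18.6 kb and the longest 220 kb, and domains of 50 kb or more held 22.5% of the member bins. The word broad therefore fits a minority of the domains as the rule draws them.

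Coverage set many of the ends. Of the domain ends, 73.7% met a bin under the call minimum and 26.3% a measured bin. Of the measured neighbours, 42.2% had 10 to 20%, 35.1% had 20 to 50%, 15.7% had 50 to 80% and 6.995% had 80 to 100% pooled methylation. Of the neighbours under the minimum, which the rule did not use, 65.2% were below 10% when their calls were pooled.

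A stretch of up to 5 unmeasured bins was also bridged where it lay between members. This gave 6805 domains with a median of 20 kb, of which 679 were 100 kb or longer and the longest was 620 kb. Of the 7156 bridged bins with at least 20 pooled calls, 75.3% were below 10% and 2.17% above 50%, against 20.2% and 35.2% of all 181238 bins under the minimum. Their median was 7.09%, against 28.3%. Bridged bins were low in each library, from 7.45% in SOA4 to 11.4% in SO4, with IV1 at 16.8%. In these libraries the domains thus extended through bins that had played no part in choosing them.

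**Figure D1:**
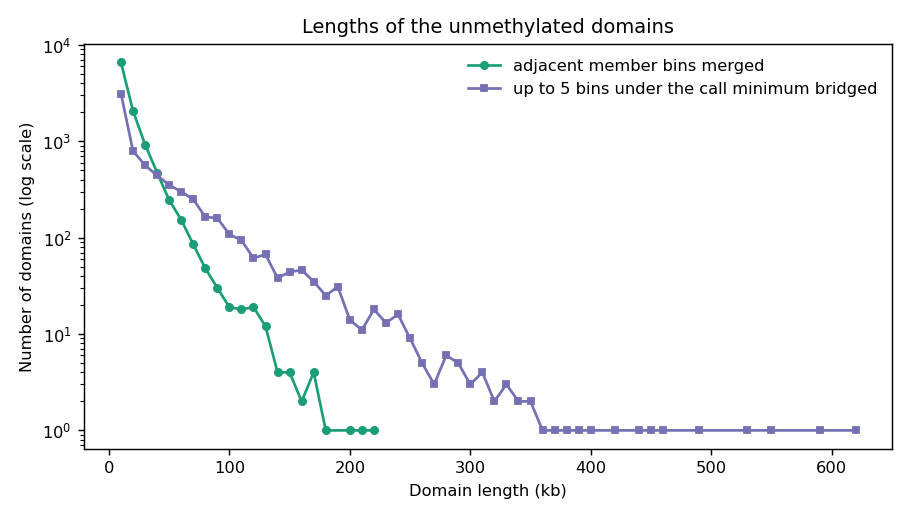
Number of unmethylated domains (log scale) by length in kb, with adjacent member bins merged (circles) or with up to 5 bins under the call minimum bridged (squares). Domains of 1 bin number 6567 in the first and 3109 in the second, and the longest are 220 kb and 620 kb.

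The members lay on each autosome and made up 25.8% (chromosome 8) to 41.4% (chromosome 3) of its measured bins. On the X chromosome, which the rule left out, 216 of 592 measured bins were below 10%. The pooled level of the members, which chose them, ranged from 0.778% to 9.997% with a median of 5.45%, and 40.6% were below 5%. Just inside the limit 495 bins had 9.5 to 10%, and just outside it 423 bins were less than 0.5 points above it, so that the limit cut through a continuous distribution.

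CpG content did not set the members apart from the other measured bins. They held a median of 126 CpGs, against 128 in all measured bins and 127 in the 10939 bins above 90%, and the median GC content was 46.6% in members, 46.6% in all and 46.7% in bins above 90%. The soft-masked repeat share was 21.7%, 21.9% and 20.2%. Bins under the call minimum were different, with a median of 62 CpGs. The measured bins, members included, therefore come from the CpG-richer part of the genome.

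Gene bodies set the members apart more clearly. Protein-coding gene bodies covered 41.1% of the member bases, 59.0% of all measured bases and 89.1% of the bases above 90%. A protein-coding start lay in 19.9% of member bins, 19.4% of all measured bins and 2.71% of bins above 90%. Of the domains 43.7% overlapped no protein-coding gene, and of those of 50 kb or more 24.3% did not. A longer domain has more room to overlap a gene. Of 12759 protein-coding starts in measured bins, 4281 (33.6%) lay in domains, near the 34.7% of measured bins that were members.

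The pattern recurred in groups that had not chosen the bins. Bins below 10% in the 3 other groups together were below 10% in the remaining group in 90.9% (IFC), 95.3% (SO), 97.7% (SOA) and 81.3% (IV) of cases, with the calls of a group pooled. Without IV1, the IV share was 94.9%, and in IV1 alone it was 34.3%. Below 20% the shares were 99.8% (IFC), 99.96% (SO), 100% (SOA) and 99.9% (IV). No such bin was above 50% in the group left out.

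The longest domain spanned 220 kb on chromosome 17 (chr17:47110000-47329999), held 3510 CpGs and no protein-coding gene. Its levels were 5.77, 5.64, 4.18 and 6.72% in the IFC libraries, 3.16, 3.42, 3.96, 7 and 3.60% in SO, 5.39, 4.55, 3.73 and 3.36% in SOA, and 13.9, 6.22 and 4.62% in IV. IV1 was the highest and SO4 the second highest, and the other 14 libraries lay between 3.16 and 6.72%. The second longest, 210 kb on chromosome 4 (chr4:141230000-141439999), held 7 protein-coding genes, among them Epha2, an ephrin receptor, and Hspb7, a heat shock protein of heart muscle. Its median over libraries was 3.71%, with a range of 2.62 to 11.5%.

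The other 8 of the 10 longest domains were 160 to 200 kb. The 200-kb domain on chromosome 8 overlapped the long gene model Gm20388 (median 5.96%). Others held Hunk, a protein kinase of the mammary epithelium (180 kb, chromosome 16, median 4.95%), Grik3, a kainate receptor subunit (170 kb, chromosome 4, 4.45%), Igsf21, a synaptic adhesion protein (170 kb, chromosome 4, 4.77%), Etv6, an ETS repressor of blood formation (170 kb, chromosome 6, 5.83%), Runx3, a transcription factor of T cells and sensory neurons (160 kb, chromosome 4, 3.94%), and Ccdc40, needed to assemble motile cilia, with Tbc1d16 (160 kb, chromosome 11, 4.37%). A 170-kb domain on chromosome 6 held no protein-coding gene (4.38%). IV1 was the highest library in each of the 10, at 10.9 to 17.6%.

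Among the domains outside chromosome 18, which this ranking left out, those with the most protein-coding genes were Hox clusters. Hox genes encode homeodomain factors that fix position along the body axis and are silent in the oocyte. The Hoxa domain (chr6:52150000-52279999, 130 kb, 13 genes) was at 2.67% and the Hoxd domain with Evx2 (chr2:74640000-74769999, 130 kb, 11 genes) at 2.86%, while the third, with Fxyd ion transport regulators and the serine protease Hpn (chr7:31040000-31159999, 120 kb, 8 genes), was at 4.36%. In the Hoxa domain the IFC libraries had 1.80, 3.08, 3.10 and 2.96%, SO 1.71, 1.55, 2.88, 2.82 and 3.15%, SOA 2.86, 2.35, 1.98 and 2.40%, and IV 3.52, 2.18 and 2.85%. The groups overlapped there, and IV1 exceeded the next library by less than the range among the others.

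Genes were then sorted by whether the member bins covered them. Of 7499 protein-coding genes with at least 80% of their length in measured bins, 1370 (18.3%) lay inside domains, with each of their measured bins a member, 1380 lay partly in them and 4749 outside. Against these shares the lists below are descriptions, with no test of a list. The lists cover 20 families or functions.

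Hox genes had the highest share inside among the lists with at least 10 genes so measured. Of 35 Hox genes so measured 34 were inside, with Hoxc4 partly so, and 37 of 37 measured Hox starts lay in domains. Pooled methylation over the member bins, which are below 10% by the rule, was 2.68% at Hoxa, 2.93% at Hoxb, 2.82% at Hoxc and 2.91% at Hoxd. Members were 12 of 12 measured bins at Hoxa, 12 of 13 at Hoxb, 8 of 10 at Hoxc and 11 of 11 at Hoxd. The other measured bins are not in these values. Of 93 other homeobox and patterning factors 61 (65.6%) were inside and 13 outside, and 94 of 110 starts (85.5%) lay in domains. The next 2 genes had less than 80% of their length measured and are not among the 93. Pax7, a factor of muscle satellite cells, with 76.5 of 96.47 kb measured, had 4.87% ± 1.46 (SD, n = 4) in IFC, 3.77% ± 0.504 in SO (n = 5), 4.13% ± 1.76 in SOA (n = 4) and 5.12% ± 2.84 in IV (n = 3). Sox5, a factor of cartilage and neurons, with 492 of 954 kb measured, had 62.0 kb in domains and 46.4% methylation over its body.

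Several multigene families had higher shares than all genes. Of 37 keratins, the filament proteins of epithelia, 24 (64.9%) were inside. Of 34 replication-dependent histone genes, which dividing cells use in S phase, 28 (82.4%) were inside. Histone genes have a median length of 0.539 kb, so that this describes the 10-kb bins around them more than the genes. Only 2 histone gene bodies had 20 calls in each library. Of these Hist1h1d, inside with 6.738 of 7.425 kb measured, had 13.2% pooled methylation over its body. Of the few olfactory receptors with enough coverage, 8 of 15 were inside, but 1128 are annotated, so that most were not measured. Of 42 potassium channels 14 were inside, and of 12 GABA and glutamate receptors 4 (33.3% in each). Grik3 lay inside over 213 measured kb and had 5.46% ± 0.648 in IFC, 5.36% ± 1.93 in SO, 8.24% ± 5.46 in IV (with IV1 at 14.4%) and 4.31% ± 0.949 in SOA. Cdh22, a cadherin of the brain, was the one inside among 5 classical and type II cadherins (20%, near the 18.3% of all genes). Of 12 clustered protocadherins, neuronal adhesion proteins whose gene models overlap and share calls, 7 were inside, while of the 51 with any measured bin 11 (21.6%) were inside and 35 partly so, and 43 of 49 measured starts lay in domains.

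Housekeeping genes and genes of oocyte function with at least 80% of their length measured were nearly absent inside domains. Of 58 ribosomal protein genes 0 were inside and 54 outside, of 17 proteasome subunits 1 was inside, Psmb9, an immunoproteasome subunit, and of 14 Mediator subunits 0 were inside. Of the 34 proteasome genes with any measured bin, 4 (11.8%) were inside, against 16.8% of all such genes. Of 19 oocyte genes 0 were inside and 18 outside. The oocyte factor Sohlh2 would count as inside from 7.97 measured kb of its 27.9 kb, but its body had 14.4% pooled methylation. In the same way, the only 10.0 measured kb of the Mediator gene Med15 were a member bin, while the 81.7-kb body was at 71.4%. These cases are why at least 80% coverage was asked of a gene.

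The germline and follicle lists were mixed. Stra8, which starts meiosis in the fetal ovary, and Spo11, which makes the meiotic double-strand breaks, were inside, while 3 of the 6 well-covered meiosis genes were outside. Stra8 had 1.32, 5.68, 1.75 and 10.6% in the IFC libraries, 5.19, 5.13, 2.42, 4.18 and 4.41% in SO, 3.49, 3.08, 3.30 and 2.29% in SOA, and 10.5, 3.66 and 2.57% in IV. IFC4 and IV1 were far above the other 14 libraries, which overlapped between the groups. Of 9 granulosa and cumulus cell genes, which are active in the cells around the oocyte, 5 were inside: Areg, an EGF-like growth factor, Foxl2, a granulosa cell factor, Fst, which binds activin, and Inha and Inhbb, which encode inhibin subunits.

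**Figure D2:**
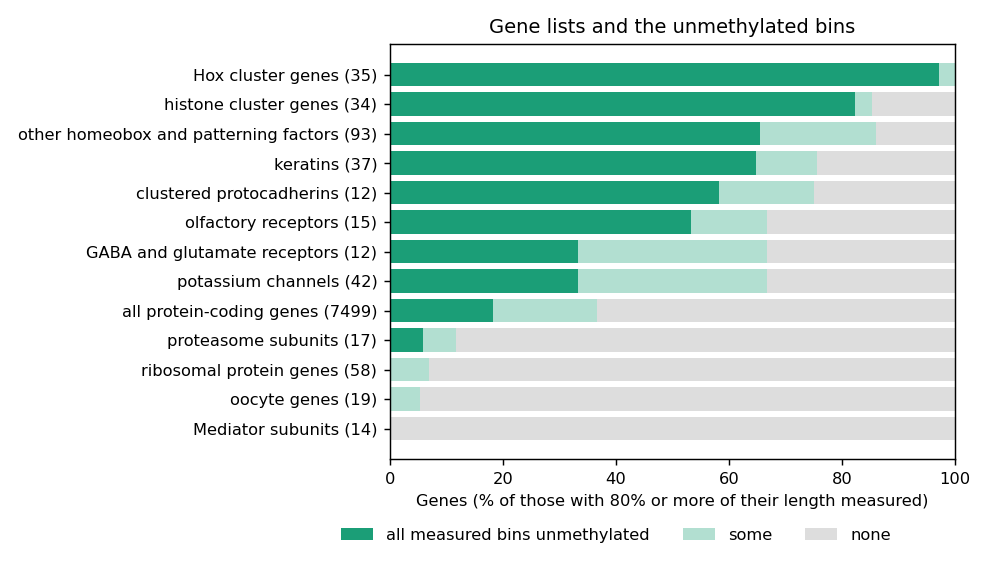
Share of genes (%) whose measured bins were all, in some or in no case unmethylated members, for lists with at least 10 genes that have 80% or more of their length in measured bins (number in parentheses). Hox genes stand at 97.1% inside, all protein-coding genes at 18.3%, and ribosomal protein, oocyte and Mediator genes at 0%.

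Residual methylation in the domains was low in each library, but not equal. Over the member bins it was 5.09, 5.46, 4.88 and 5.91% in IFC, 4.16, 4.52, 4.39, 7.16 and 4.19% in SO, 5.19, 4.78, 4.07 and 3.79% in SOA, and 11.8, 5.10 and 4.31% in IV. The groups overlapped, and IV1 and SO4 exceeded the other 14 libraries, which lay between 3.79 and 5.91%. The group means were 5.34% ± 0.453 (SD) for IFC (n = 4), 4.88% ± 1.28 for SO (n = 5), 4.46% ± 0.645 for SOA (n = 4) and 7.06% ± 4.10 for IV (n = 3). Without SO4 the SO mean was 4.31% ± 0.172, and without IV1 the IV mean was 4.71% ± 0.560. Each value rests on 795481 or more calls, so that counting error was far smaller than the spread between libraries. A cytosine left unconverted by bisulphite is also called methylated, and its share in these values was not tested.

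**Figure D3:**
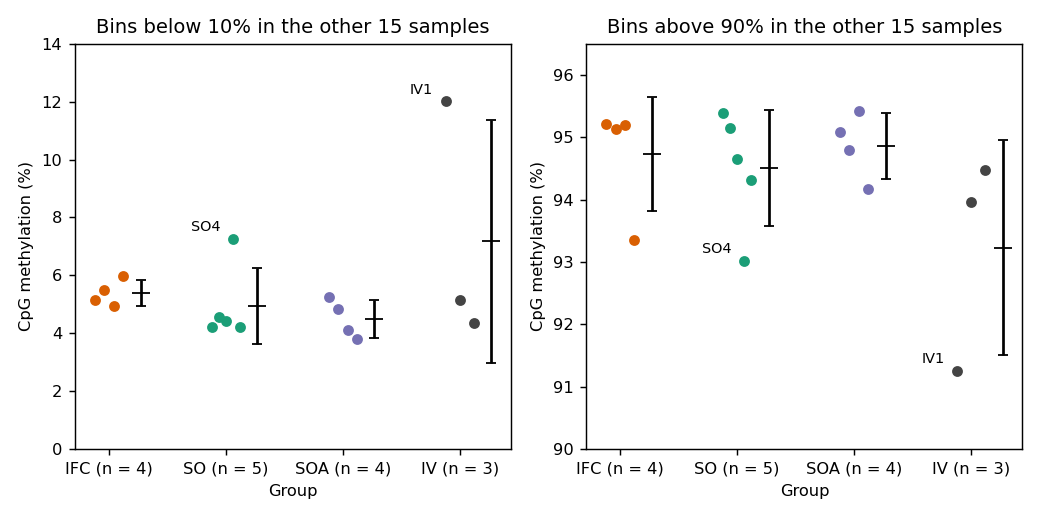
CpG methylation (%) of each library (points) in bins below 10% (left, axis from 0) and above 90% (right, axis from 90) in the other 15 libraries, with the group mean and SD as bars. IV1 and SO4 are the highest 2 libraries on the left, at 12.01% and 7.27%, and the lowest 2 on the right, at 91.3% and 93.0%.

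To compare groups, bins were chosen by the same limits from the libraries of the other 2 groups and the library values were compared by two-sided exact permutation tests. IFC was above SO by 0.514 percentage points (5.64% ± 0.417 against 5.13% ± 1.28, 19671 bins, exact permutation p = 0.5). SO was above SOA by 0.431 points (4.79% ± 1.27 against 4.36% ± 0.635, exact permutation p = 0.722), and SOA below IV by 2.61 points (4.70% ± 0.673 against 7.31% ± 4.15, p = 0.171). IFC was above SOA by 0.895 points (5.33% ± 0.447 against 4.43% ± 0.640, p = 0.0857, smallest p the exact test allows 0.0286). Adjusted over the 4 comparisons by the Benjamini-Hochberg method these exact p-values were 0.667, 0.722, 0.343 and 0.343, and none passed the threshold of 0.05.

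Single libraries carried much of this. Without SO4, IFC exceeded SO by 1.08 points in 4 libraries against 4 (exact permutation p = 0.0286, unadjusted), and the difference of SO minus SOA turned to -0.135 points. Without SOA1, IFC exceeded SOA by 1.14 points (exact permutation p = 0.0286, unadjusted). Both p-values are the smallest that such a test allows, and come from a series in which each library was left out in turn. The difference of SOA minus IV, -2.61 points with all libraries, was -0.229 without IV1, -3.61 without IV2 and -4.005 without IV3.

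What methylation remained was lowest where CpGs were dense. CpGs with 10 or more CpGs within 100 bp had 2.50% pooled methylation, those with 4 to 9 had 5.37% and those with 1 to 3 had 6.77%. CpGs within 500 bp of a protein-coding start had 2.67%, exons 5.22%, introns 6.16%, positions outside protein-coding genes 5.74% and soft-masked repeats 7.10%. The order by density was the same in the 4 groups: from dense to sparse, IFC had 2.22, 5.16 and 6.73%, SO 2.29, 4.70 and 6.15%, SOA 2.12, 4.28 and 5.56%, and IV 2.96, 7.20 and 8.67%. IV1 was the highest library in each class, at 4.34, 12.4 and 14.1%, and the highest of the other 15 had 3.19, 7.19 and 8.73%. The excess of IV1 was thus smallest in points at dense CpGs.

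Few single CpGs in the members were highly methylated, which the limit of 10% on the bins also bounds. Of 2764649 CpGs in the members, 1298150 had at least 10 pooled calls. Of these, 54.1% had no methylated call, 0.329% were above 50% and 0.0968% were at or above 80%. At such depth a CpG can lack a methylated call by sampling alone, so that 54.1% is no share of fully unmethylated CpGs. Runs of at least 5 consecutive CpGs, each at 50% or more with at least 5 calls, formed 229 methylated patches in 209 member bins. A patch had a median of 6 CpGs and 374 bp, 149 lay in protein-coding genes, 29 within 1000 bp of a start, and 35 (15.3%) mostly in soft-masked repeats.

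The 5 patches with the most CpGs, with ties at 14 CpGs taken by number of calls, lay outside annotated exons of protein-coding genes. Exons of non-coding genes were not checked, and chromosome 18 was left out of this ranking. The same number of CpGs was reached by patches in Klhl25 and in Hhex, and the Hhex patch overlapped an exon. In the Foxo3 intron (chr10:42270017-42271093, 16 CpGs) the pooled share was 97.1%, and by group 100% (IFC, 33 calls), 93.7% (SO), 97.4% (SOA) and 100% (IV). The patch in Zfp428, a zinc finger gene, had 98.8% over 14 CpGs (chr7:24508558-24509997), and that in Igf2bp3, an RNA-binding protein of fetal tissues, 89.6% over 15 CpGs (chr6:49210447-49211299). The patch in Fgfr2, a growth factor receptor, had 84.7% over 15 CpGs (chr7:130260050-130260925). The fifth, among the non-coding genes Dleu2 and Gm37472 (chr14:61680852-61681146, 14 CpGs), was lower, with 55.6% (IFC), 64.9% (SO), 81.4% (SOA) and 58.8% (IV) on 27 to 57 calls each. In the 4 coding genes each group was at 72.5% or more, within bins at 7.15 to 10.0% in all.

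The edges of domains of 30 kb or more were examined in 1-kb steps. Over all 4084 edges, methylation was 5.24% at 14 to 15 kb inside, 7.03% in the last kb inside, 10.7% in the first kb outside and 30.8% at 9 to 10 kb outside. At the 1416 edges that met a measured bin the first kb outside had 13.8%, and 49.8% was reached at 9 to 10 kb. The bin beyond such an edge is above 10% by the rule, so that a rise was built in. Its course over the first 10 kb outside was also set by the grid, since a boundary anywhere in that bin is averaged over it, and says nothing of how sharp the edges are. At 9 to 10 kb outside these edges the groups had 50.1% ± 3.03 (IFC), 50.04% ± 2.34 (SO), 50.5% ± 3.18 (SOA) and 50.7% ± 1.97 (IV), which differed by less than the SD of each. IV1 was above the group means inside, at 11.7% against 5.32 to 7.54% at 1 to 2 kb inside, and reached 52.9% outside.

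**Figure D4:**
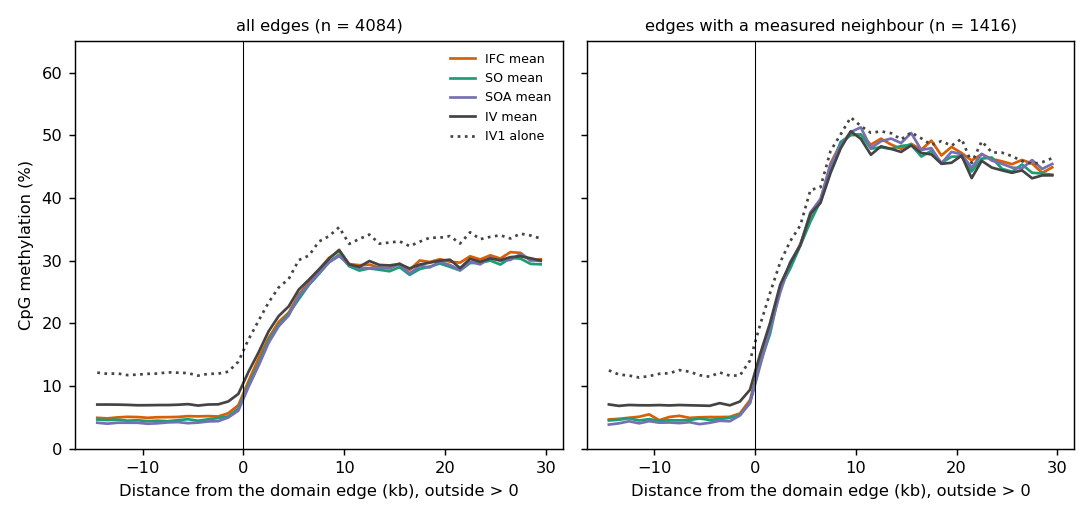
Mean CpG methylation (%) by distance in kb from the edges of domains of 30 kb or more (inside below 0), for all 4084 edges (left) and the 1416 edges with a measured bin outside (right). The lines of the 4 group means run together outside, where the right panel reaches 49.8% at 9 to 10 kb, and IV1 (dotted) lies above them inside.

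Single member bins were compared between groups by a likelihood-ratio test on the calls, with group in a logistic model, adjusted over the 57035 measured bins by the Benjamini-Hochberg method (threshold 0.05). The test has no term for the spread between libraries of a group beyond counting error. That spread was 1.23 to 2.49 times the counting variance in the median member bin, so that counts are also given for a quasi-binomial F test and for limma, which estimate it. The limit of 10% on the pooled level bounds the size of a difference in a member.

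Between IFC and SO, 548 of 19797 members were called (2.77%), fewer than the 7.98% of all measured bins. IFC was higher in 336 and lower in 212, against 3.94% and 4.05% of all bins, and without SO4 the count was 775 (3.91%, against 8.29% of all bins), with 679 higher. In 125 called members the libraries of the groups did not overlap, against 2.1% of all bins. By limma 1 member was called (1107 at an unadjusted p under 0.05), against 0.184% of all bins, and by the quasi-binomial F test 0 (1031 unadjusted), with 0 of all bins called. An unadjusted p under 0.05 is also met by bins without a difference, and its share of all bins was not counted. The unadjusted counts here and below are therefore no result about the members. A difference of at least 20 points was met by 1 member, against 1.14% of all bins.

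That bin lay in Slc38a4 (chr15:97000000-97009999), an amino acid transporter expressed from the paternal allele in placenta. The IFC libraries had 25.0, 33.3, 29.4 and 9.18%, SO 2, 2, 4.50, 7.88 and 4%, SOA 8.70, 0, 5.45 and 2.35%, and IV 18.3, 5.45 and 7.83%. The IFC libraries were above those of SO and SOA, with IFC4 close to the highest of them, and IV1 lay within the range of the IFC libraries. The bins named here and below were picked among called bins whose compared groups do not overlap. A gap between the groups compared is thus no finding in them. IFC exceeded SO by 20.2 points (likelihood-ratio adjusted p = 2.22e-10, limma 0.0330, quasi-binomial F 0.382) and SOA by 20.1 points (1.32e-11, limma 0.0276, quasi-binomial F 0.204). The bin held exons and introns of the gene.

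A bin at the start of Ccdc43 (chr11:102690000-102699999) had 27.1, 33.3, 20.8 and 16.3% in IFC, 12, 10.7, 6.55, 13.4 and 7.14% in SO, 6.12, 5.26, 3.03 and 5.56% in SOA, and 12.2, 2.42 and 2.48% in IV. Each IFC library was above each of the other 12, and for SO and SOA this was a condition for naming the bin. IFC exceeded SO by 14.4 points (likelihood-ratio adjusted p = 0.000205, limma 0.168) and SOA by 19.4 points (1.39e-08, limma 0.0172, quasi-binomial F 0.0737). The kilobase with 54 CpGs stayed at 2.70% in IFC, and the third kb was at 61.3% on 31 calls. Single kilobases given here and below were picked after their values were seen. Their calls are pooled over the libraries of a group, without a spread between libraries. In the other direction Ttc39b (chr4:83320000-83329999) had 2.15% ± 1.52 in IFC and 11.9% ± 2.41 in SO, with SOA at 4.29% ± 3.87 and IV at 7.85% ± 1.44 (likelihood-ratio adjusted p = 0.000336, limma 0.0840).

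Between SO and SOA 1155 members (5.83%) were called, against 12% of all measured bins, with SO higher in 1013 and lower in 142 (7.09% and 4.89% of all bins). In 207 called members the groups did not overlap, against 3.07% of all bins. The count was 568 without SO4 (2.87%, against 9.49% of all bins), with SO higher in 334 and lower in 234, and 552 without SOA4 (2.79%, against 8.81% of all bins). Limma called 9 members (1086 unadjusted), against 0.887% of all bins, and the quasi-binomial F test 2 (1375 unadjusted), against 0.11%. A difference of 20 points was met by 0 members, against 1.74% of all bins.

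The SO and SOA difference of some bins was shared by IFC in its values. In the bin in Jph3, which encodes a junctional membrane protein of neurons, and overlapping Gm20388 (chr8:121730000-121739999), IFC had 15.2, 11.3, 15.3 and 12.6% and SO 17.98, 19.7, 10.9, 24.1 and 9.09%, while SOA had 4.41, 3.17, 1.14 and 7.03% and IV 7.39, 2.80 and 3.43%. The 9 libraries of prepubertal origin were all above the 7 of adults, where the gap between SO and SOA was a condition for naming the bin. SO exceeded SOA by 12.4 points (likelihood-ratio adjusted p = 5.79e-08, limma 0.0730). In the fifth kb IFC had 70.6% (17 calls) and SO 41.2% (68 calls). There SOA had 0% of 45 calls, which allows up to 6.67%, and IV 9.52% of 42 calls. This kb was picked for its values, and its pooled calls give no spread between libraries.

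An intergenic bin 81.1 kb from Arhgap32 (chr9:32030000-32039999) had 21.7% ± 13.6 in IFC and 18.1% ± 7.57 in SO, against 3.05% ± 2.67 in SOA and 3.94% ± 1.63 in IV. SO exceeded SOA by 15.05 points (likelihood-ratio adjusted p = 6.65e-09, limma 0.0410). The third kb, with 154 CpGs, was at 0 to 6.91% in each group, and the tenth kb at 85.7% (IFC), 65.6% (SO), 33.3% (SOA) and 16.0% (IV). These kilobases were likewise picked after their values were seen, with calls pooled within each group. Zbtb16, a transcription factor of spermatogonial stem cells, had 15.03% ± 6.56 in SO and 2.62% ± 2.06 in SOA in 1 intronic bin (chr9:48810000-48819999, likelihood-ratio adjusted p = 1.30e-05, limma 0.0590).

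Some bins of the opposite direction passed limma as well. In Nxph1, a neuronal secreted protein (chr6:8950000-8959999), SO had 3.33, 6.15, 7.57, 4.17 and 5.36% and IFC 6.00, 5.88, 6.59 and 3.09%, whereas SOA had 14.2, 18.8, 24.4 and 14.1% and IV 12.5, 12.3 and 10.49%. The 9 libraries of prepubertal origin were all below the 7 of adults, where the gap between SO and SOA was again a condition for naming the bin. SO was lower than SOA by 12.5 points (likelihood-ratio adjusted p = 1.99e-07, limma 0.0394). A bin with 2 small nuclear RNA genes, Gm23971 and Gm24950 (chr11:101640000-101649999), had 3.74% ± 1.41 in SO and 18.5% ± 6.55 in SOA (likelihood-ratio adjusted p = 4.86e-10, limma 0.0170).

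Between SOA and IV 4326 members (21.9%) were called, against 13% of all measured bins, and SOA was lower in 4297 of them and higher in 29 (9.94% and 3.06% of all bins). In 1132 called members the groups did not overlap, against 3.69% of all bins. Without IV1, 298 members (1.51%) were called, with SOA lower in 242, against 2.96% of all bins. Limma and the quasi-binomial F test called 0 members (1552 and 1232 at an unadjusted p under 0.05), and 0 of all measured bins. A difference of 20 points was met by 0 members, against 0.274% of all bins. The count thus depended on IV1, and it also fell to 1273 without SOA4, the deepest library (6.43%, near the 6.76% of all bins), and rose to 7679 without IV3 (38.8%, against 21.5% of all bins).

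The named bins of this comparison rested on single libraries to different degrees. Outside chromosome 18, the bin with the largest difference among those lower in SOA was intergenic (chr13:44290000-44299999). It had 9.26, 0, 2.08 and 4.96% in SOA and 27.7, 19.8 and 10.8% in IV. The bins named in each comparison were chosen as ones whose groups do not overlap, so that this separation is no finding. Its difference was -15.3 points (likelihood-ratio adjusted p = 5.58e-05, limma 0.792) and -11.2 points without IV1 (likelihood-ratio adjusted p = 0.0234). IV1 stood far above the other IV libraries in the next 2 bins. In Mypn, a sarcomere protein (chr10:63190000-63199999), the SOA libraries had 0, 0, 0 and 1.20% and IV 33.3, 5.51 and 7.33%. In Ostm1, a partner of the lysosomal chloride transporter (chr10:42600000-42609999), SOA had 0, 4.35, 4.55 and 2.90% and IV 37.7, 5.17 and 8.79%. The likelihood-ratio adjusted p-values were 4.64e-07 and 2.82e-05, with limma at 0.792 in both, and without IV1 the Mypn difference went from -15.1 to -6.12 points while the Ostm1 bin lost its call (adjusted p = 0.298). In the other direction Tnks2, a tankyrase, had 12.3, 18.6, 51.7 and 7.87% in SOA and 4.85, 5.49 and 3.72% in IV (chr19:36830000-36839999, likelihood-ratio adjusted p = 0.000221, limma 0.792), with SOA3 far above the others. Its difference of 17.9 points was 8.25 points without SOA3 (likelihood-ratio adjusted p = 0.0184).

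Between IFC and SOA 1373 members (6.94%) were called, against 14.6% of all measured bins, with IFC higher in 1179 and lower in 194 (8.41% and 6.15% of all bins). Limma called 47 members (1604 unadjusted), against 1.95% of all bins, and the quasi-binomial F test 11 (1806 unadjusted), against 0.498%. A difference of 20 points was met by 1 member, the Slc38a4 bin, against 3.51% of all bins. The count was 741 without SOA4 (3.74%, against 11.1% of all bins), with IFC higher in 507 and lower in 234. Groups did not overlap in 473 of the called members, which compares with 5.87% of all bins. The comparisons with SO and with SOA share the IFC libraries.

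Among bins lower in IFC than in SOA, an intergenic bin 23.4 kb from Cacna1a (chr8:84360000-84369999) had 2.86, 0, 4.17 and 0% in IFC and 36.7, 19.4, 10.7 and 8.57% in SOA (likelihood-ratio adjusted p = 9.82e-05, limma 0.0579). The difference of -17.1 points was -11.2 points without SOA1 (likelihood-ratio adjusted p = 0.00538). SO lay between at 10.4% ± 3.80. A bin 29.6 kb from Sftpb (chr6:72270000-72279999) had 2.49% ± 2.30 in IFC, 11.97% ± 4.30 in SO, 11.1% ± 4.44 in IV and 16.8% ± 10.8 in SOA, and IFC was lower than SOA by 14.3 points (likelihood-ratio adjusted p = 0.000662, limma 0.0818). SOA2 was the highest there, at 32.3%, and the difference without it was -9.12 points (likelihood-ratio adjusted p = 0.0141).

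**Figure D5:**
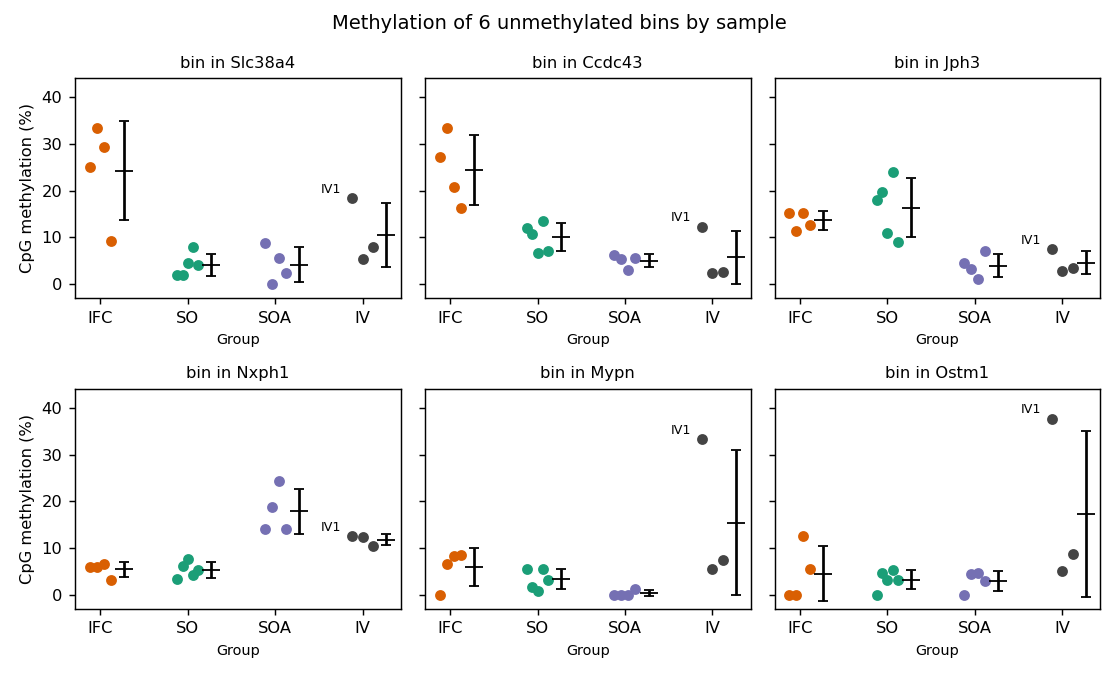
CpG methylation (%) of each library (points) in 6 member bins, by group, with the group mean and SD as bars. IFC is high in the Slc38a4 and Ccdc43 bins, IFC and SO in the Jph3 bin, SOA and IV in the Nxph1 bin, and IV1 alone in the Mypn (33.3%) and Ostm1 (37.7%) bins.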

How the data were processed

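CpG methylation was measured by PBAT in 16 pools of MII oocytes, grouped by their sample labels as IFC (4), SO (5), SOA (4) and IV (3). The authors trimmed reads with Trim Galore 0.4.4 and cutadapt 1.9.1 and called methylation with Bismark 0.19.0 on GRCm38, per the submitters' processing notes, and duplicates were removed. The deposited tables give, per covered cytosine of a CpG, 2 counts (calls read as methylated and as unmethylated) and the methylated percent, without normalization by the authors. The animals are F1 hybrids, so that CBA/Ca variants at CpGs can be read as unmethylated or lost.

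The counts were summed in 10-kb bins, with calls of both strands, and 20 calls per library were required. The members and gene lists were chosen with earlier results of these data known. Genes were those of GENCODE M21, and promoter sequences those of RefSeq on GRCm38.p6. Soft-masked repeats were read from the genome sequence.

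Bins were compared by logistic models with and without group by a likelihood-ratio test, the Benjamini-Hochberg method over 57035 bins and, as alternatives, a quasi-binomial F test and limma 3.58.1 in R 4.3.3 on sample percentages with a mean-variance trend. Library values were compared by two-sided exact permutation tests. On simulated calls with 100 changed member bins per size among 57035 bins, the likelihood-ratio test recovered 58 to 76 bins changed by 10 points, 100 of 100 changed by 30 points, and called 7 to 20 unchanged bins. The simulated calls held counting error only, without the further spread between libraries. These numbers are therefore not the error rates of the test on the real calls. Python 3.11.15 with numpy 2.4.6, scipy 1.17.1 and matplotlib 3.10.9 was used.

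Named were the 10 longest domains, the 3 with the most protein-coding genes, per gene list the 3 members with the longest stretch in domains, per comparison and direction the 3 called bins with the largest difference whose groups do not overlap, and the 5 patches with the most CpGs. Chromosome 18 was left out of these choices, except for the gene lists. Of these the text describes part. Other genes, among them those listed as inside, the single kilobases of named bins and the printed sequences were chosen after their values were seen. The alternatives changed the limit, the call minimum, the weights, the grid, the positions used, the bridging, the tests, the libraries and the replicate block.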

Additional observations from a re-analysis of the deposited data

Results flagged for a closer look

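SO4 had 7.16% methylation in the member bins and stood apart from the other 4 SO libraries, which had 4.16 to 4.52%, by Dixon's criterion for 5 samples. IFC4 had 93.4% in the bins above 90% in the other 15 libraries, apart from the other 3 IFC libraries at 95.1 to 95.2%, by the same criterion for 4 samples. Chance meets this criterion in about 1 of 20 groups for each quantity, and several quantities were examined in IFC, SO and SOA. The IV group, with 3 libraries, was not examined, so that IV1 could not be flagged. The calls on the mitochondrial genome, which no comparison used, were methylated in 31.2% (lowest library, SO3) to 49.8% (highest, IFC1), on 28130 to 31601 calls per library, above the level of each library in the domains. IV1, with the highest level in the domains, had 31.2% there.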

How the results depend on the processing

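The geometry of the domains depended on the limit and the coverage. A limit of 5% gave 6026 domains, 80.4 Mb and a longest domain of 90 kb. A minimum of 10 calls gave 402.17 Mb and 410 kb, a minimum of 40 calls gave 1805 domains, 20.39 Mb and 60 kb, and bridging gave 6805 domains and 620 kb. Without 1 library at a time the numbers were 10543 to 11238 domains and 194.48 to 213.54 Mb, and the longest 220 to 300 kb.

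The difference between SO and SOA in the domains reversed to -0.345 points in libraries under 10000000 calls and to -0.135 without SO4, and ranged from -0.135 to 0.673 over libraries left out. IFC minus SO ranged from 0.335 to 1.08, IFC minus SOA from 0.672 to 1.14 and SOA minus IV from -4.005 to -0.229. With a limit of 5% IFC minus SO was 0.219 and IFC minus SOA 0.484 points.

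The counts of called members fell in the quasi-binomial F test (0, 2, 0 and 11 members in the 4 comparisons as ordered above) and in limma (1, 9, 0 and 47). In those shallower libraries they were 251, 245 and 741, with no value for SOA vs IV because each IV library is deeper. With 10 calls as the minimum IFC vs SOA had 2128 among 40217 bins below 10%. Without 1 library at a time SO vs SOA had 552 to 1543, SOA vs IV 298 to 7679 and IFC vs SOA 741 to 1405. The same replicate numbers do not pair the pools, whose deviations correlated at -0.0120 to 0.103, and with the number as a replicate block the counts were 471, 1949, 1593 and 1383. Counts in this paragraph that were not given above have no share of all measured bins beside them, and are no result about the members. The 24 tests of named bins covered 20 bins, of which 4 were named in 2 comparisons that share libraries. Limma called 6 of these tests, in 5 bins, and the quasi-binomial F test 0. Of 198 likelihood-ratio tests without 1 library, 190 kept the call. The named bins were chosen as called bins whose groups do not overlap, so that this share is no measure of stability. Where these values moved, the cause was not tested, except that fewer libraries or calls were tested by construction. Subtracting the mitochondrial percent was not run, because it exceeds the level in the domains.

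Depth limited the work to 23.8% of autosomal bins, which are CpG-rich, and a 10-point change in a member was often missed on simulated calls.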
